A study of Homo sapiens with 3 samples.

Results

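Chromosome 19 was examined in the 3 deposited lists of bound regions from DU145, an established prostate cancer cell line derived from a brain metastasis. Its members are the listed regions on chromosome 19 of hg19, chosen by position alone, and they number 1508 of 17232 regions in all. ZMYND11 (also called BS69) had been precipitated from the parental cells (37 of 536 regions) and from DU145 cells with an ETS1 knockout (1359 of 15676), and ETS2 from DU145 cells with the ETS1 knockout (112 of 1020). The lists came from chromatin immunoprecipitation followed by sequencing (ChIP-seq), with 1 library per list. No replicate error could be given, and differences between the parental and knockout lists cannot be told apart from differences in depth or threshold. All 3 groups share the DU145 background and its medium, to which puromycin was added where cells were under selection. Which of them were selected, and whether the knockout line is 1 clone, is not stated in the labels.

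By the midpoint of each region the chromosome was divided into 4 segments. The p-arm segment ran from 0 to 20 Mb, the p12 zinc-finger segment from 20 to 24.5 Mb, the q-arm body from 27.5 to 52 Mb, and the q13.4 zinc-finger segment from 52 to 59.2 Mb. The stretch from 24.5 to 27.5 Mb, which spans the centromere, held 0 regions in all 3 lists, and 0 regions lay beyond the segments. The segment names were not checked against genes, because no annotation of hg19 was used here, and for the same reason no gene is assigned to a region and no sequence is shown.

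Chromosome 19 is known for its high gene density and for tandem clusters of genes that encode KRAB zinc-finger proteins, a large family of DNA-binding repressors many of which silence transposable elements. Large clusters lie in 19p12 and 19q13.4, and others elsewhere on both arms, so the other segments need not be free of them. The zinc-finger clusters are known for chromatin that carries the heterochromatin mark H3K9me3 together with H3K36me3 over gene bodies. ZMYND11 is a reader of H3K36me3 on the histone variant H3.3 and a co-repressor, whereas ETS1 and ETS2 are related transcription factors downstream of Ras that bind a GGA core, often in promoters.

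Chromosome 19 was the most densely listed chromosome in each of the 3 lists. Between its outermost regions it spans 58.8 Mb, which is 2.0% of the same span summed over all chromosomes, and it held 6.90% of the parental ZMYND11, 8.67% of the knockout ZMYND11 and 11.0% of the ETS2 list. The knockout ZMYND11 list had 23.1 regions per Mb on chromosome 19 and 4.97 per Mb on the other chromosomes, a ratio of 4.65 (95% exact interval 4.39 to 4.92). The ratio was 6.05 for ETS2 (interval 4.93 to 7.37) and 3.63 for parental ZMYND11 (interval 2.53 to 5.08). All intervals cover counting error of regions only, and since neighbouring regions are not independent they are narrower than the true error. Of the 51 megabases with at least 40 knockout ZMYND11 regions anywhere in the genome, 11 were on chromosome 19.

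The density of knockout ZMYND11 regions was far from even along the chromosome. The p-arm segment held 648 regions, or 32.4 per Mb (exact interval 29.95 to 35.0). The q-arm body held 546, or 22.3 per Mb (20.5 to 24.2), and the q13.4 zinc-finger segment held 155, or 21.5 per Mb (18.3 to 25.2). The p12 zinc-finger segment held only 10 regions, or 2.22 per Mb (1.07 to 4.09). Against the p-arm segment, p12 was 14.6-fold lower (interval 7.88 to 30.5) and q13.4 1.5-fold lower (interval 1.26 to 1.81). Without 0 to 5 Mb of the p arm, p12 was 11.7-fold lower. The q13.4 density was then only 1.21-fold lower (ratio 0.826, interval 0.681 to 0.997). Between q13.4 and the whole q-arm body the ratio was 0.966 (interval 0.803 to 1.16), a difference that was not detectable. The q-arm body included a sparse stretch, with 2 regions per Mb from 28 to 33 Mb and 28.2 per Mb from 33 to 52 Mb. The ratio of q13.4 to the denser part was not computed.

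**Figure D1:**
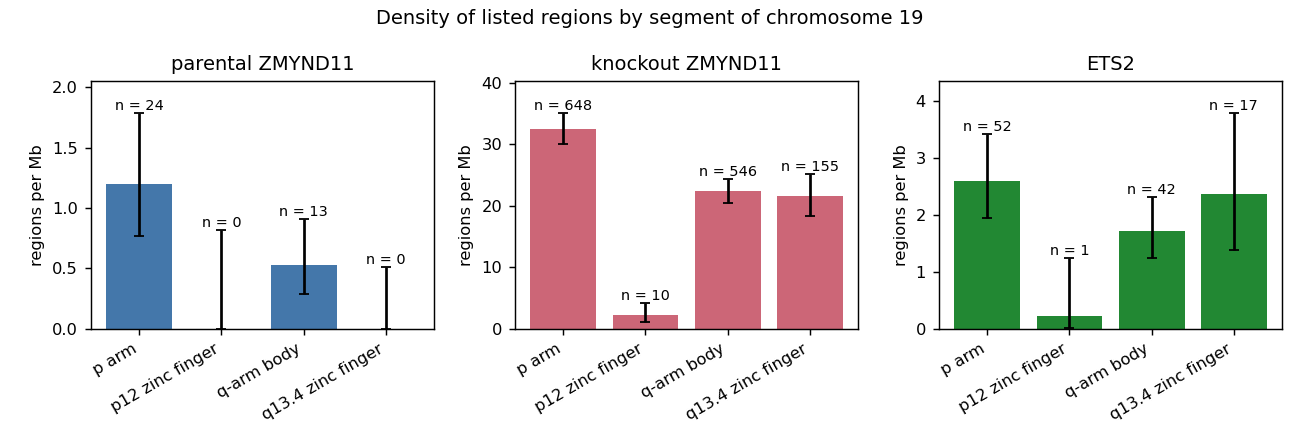
Regions per Mb in the 4 segments of chromosome 19, 1 panel per list with its own vertical axis from 0. Bars are the density, error bars the 95% exact Poisson interval of the count, and n is the number of regions. The p12 segment is low in every panel, and the parental list has 0 regions in both zinc-finger segments.

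The estimated size of the p12 deficit varied with the settings, with wide intervals. It was 38.4-fold with the first 50% of the knockout list, where p12 held only 2 regions (density ratio 0.0261, interval 0.00314 to 0.0949). It was 7-fold when regions within 10 kb of each other were merged into clusters (ratio 0.143, interval 0.0646 to 0.275). With both zinc-finger segments widened by 0.5 Mb it was 7.08-fold (ratio 0.141, interval 0.0889 to 0.214). Each interval overlapped that of the main ratio (0.0686, interval 0.0327 to 0.127). The density fell across the border at 20 Mb. The megabase before it held 45 knockout regions and the megabase after it 3. The 0.5 Mb on either side held 13 and 3, and no knockout region lay between 19887333 and 20003222.

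The 10 knockout ZMYND11 regions of p12 were few and scattered. In list order they were chr19:23505935-23506430 at place 2732 of 15676, chr19:21379879-21380338 at place 7833, chr19:20162888-20163381 at place 8336, chr19:20010007-20010477 at place 9561 and chr19:23299865-23300364 at place 9639. The other 5 were chr19:24269926-24270368 (place 10196), chr19:20003222-20003718 (place 10473), chr19:21246857-21247332 (place 12714), chr19:23577529-23578030 (place 13554) and chr19:23436816-23437295 (place 15562). What the order of the lists stands for is not stated, so a place says only where a region stands in its list. Of these 10 regions, 0 were in the first 10% of the list, which allows a share of up to 30% when a count of 0 is taken to allow up to 3 counts (Wilson upper limit 27.8%). The p-arm share of 13.7% lies below that limit, but with 10 regions even a count of 0 could not show a lower share. The median place of the 10 was 9917.5, against 7318.5 in the p-arm segment. The first 50% of the list held 2 of the 10 and 341 of the 648 p-arm regions. This difference in list place was not tested. In the last 10% of the list there was 1 of the 10. The median distance to the nearest other knockout midpoint was 102 kb, against 4.05 kb in the p-arm segment. The single ETS2 region of p12, chr19:22654908-22655409 at place 770 of 1020, was 645 kb from the nearest knockout ZMYND11 midpoint. It lay within a stretch of 1.92 Mb without a knockout region.

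Other long stretches without knockout ZMYND11 surrounded the centromere. The longest, 4.01 Mb, ran from 24270368 to 28284108, and in it ETS2 and parental ZMYND11 had 0 regions as well. It spans the centromere. Whether reads could be aligned there was not examined, so these counts of 0 say nothing about binding. The first megabases of the q-arm body were also sparse: from 28 to 33 Mb there were 10 knockout regions (2 per Mb), 0 ETS2 regions and 2 parental regions. From 33 to 52 Mb the knockout list had 536 regions (28.2 per Mb). The low density was therefore not particular to the p12 segment, and the q-arm body beyond 33 Mb came close to the 32.4 per Mb of the p-arm segment. In the p-arm segment itself the first 5 Mb held 257 knockout regions (51.4 per Mb) and the next 15 Mb held 391 (26.1 per Mb).

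The q13.4 segment was itself a patchwork. From 52 to 54 Mb it held 16 knockout ZMYND11 regions (8 per Mb) and from 57 to 58 Mb 9 regions, with a stretch of 0.713 Mb that held none from 57078980 to 57791766. Between these, from 54 to 57 Mb, there were 78 regions (26 per Mb), and from 58 Mb to the end of the segment 52 (43.3 per Mb). Of the 17 ETS2 regions, 8 lay in the 54 to 57 Mb stretch and 9 beyond 58 Mb, with 0 in the sparse stretches, where few knockout regions were listed. The match was not close at single megabases: from 55 to 56 Mb there were 30 knockout regions, the second highest count of q13.4, and 0 ETS2 regions. These borders were chosen after the counts were seen. By whole megabase, knockout counts ranged from 5 to 42 in q13.4 (median 16.5 of 8 megabases), from 0 to 4 in p12 (median 2.5 of 4), from 0 to 57 in the q-arm body (median 24.5 of 24) and from 12 to 74 in the p-arm segment (median 28.5 of 20).

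**Figure D2:**
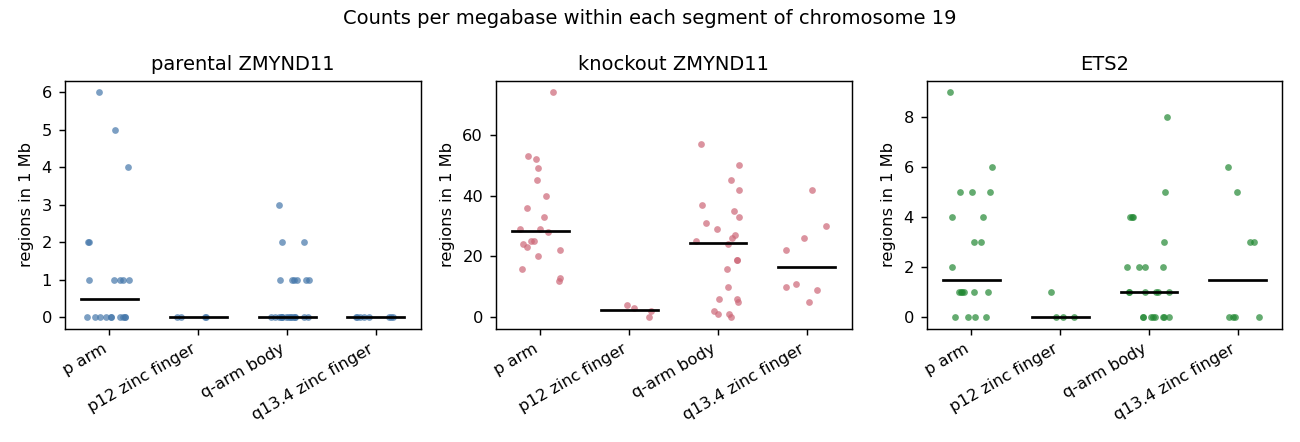
Number of regions in each whole megabase of the 4 segments, 1 point per megabase and 1 panel per list, with the median as a line. Megabases that hold a segment bound are left out, and the last megabase of q13.4 is only partly covered. Knockout ZMYND11 counts in p12 reach at most 4, while those of q13.4 range from 5 to 42 and overlap those of the other 2 segments.

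Across 56 megabases outside the centromere, counts of knockout ZMYND11 and ETS2 were related (Pearson's r = 0.61, Spearman's rho = 0.64). Parental ZMYND11 was less closely related to knockout ZMYND11 (r = 0.40, rho = 0.25) and to ETS2 (r = 0.45, rho = 0.32), although its counts per megabase were 0 for most megabases. These values describe megabases of 1 chromosome, whose base composition and mappability were not measured, and the relations were not tested.

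No difference was detectable in how ETS2 and knockout ZMYND11 regions were distributed over the segments, though the intervals were wide. The p-arm segment held 52 (46.4% of the ETS2 regions of the chromosome, 95% Wilson interval 37.5 to 55.6%) against 47.7% of the knockout regions (interval 45.0 to 50.3%). The q-arm body held 42 (37.5%) against 40.2%, and q13.4 held 17 (15.2%) against 11.4%. The difference for q13.4 was 3.77 percentage points (95% Newcombe interval -2.00 to 11.7), and the intervals for the other 3 segments also included 0. With the knockout list taken to the length of the ETS2 list, the p arm held 46.4% of ETS2 and 56.2% of knockout regions (-9.77 points, interval -22.1 to 3.03). The q-arm body then held 37.5% against 30.6% (6.92 points, interval -5.18 to 18.8). There were 12.5 knockout ZMYND11 regions per ETS2 region in the p-arm segment, 13 in the q-arm body, 10 in p12 and 9.12 in q13.4. Over whole lists there were 15.4.

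Parental ZMYND11 regions were listed in the p-arm segment and the q-arm body and in neither zinc-finger segment. The p-arm segment held 24 of 37 (64.9%, interval 48.8 to 78.2%), 17.2 percentage points above the knockout list (Newcombe interval 0.859 to 30.8). This difference was 13.395 points, with an interval that included 0 (-4.12 to 29.1), without the densest megabase, 1 to 2 Mb, which held 6 of the 24. It also included 0 when regions within 10 kb were merged (14.1 points) and when the knockout list was taken to the length of the parental list (11.5 points, interval -8.58 to 29.8). Of the 24 regions, 10 lay within 10 kb of another parental region, whereas 0 of the 13 in the q-arm body did. In q13.4 there were 0 of 37, which allows a share of up to 8.11% by the limit of 3 counts and 9.41% by the Wilson interval, against 11.4% of the knockout regions (difference -11.4 points, interval -13.2 to -1.87). With the first 50% of each list the interval of this difference included 0 (0 of 21 parental regions, -12.5 points, interval -15.1 to 3.09). For p12, where only 0.736% of the knockout regions lay, a count of 0 among 37 shows no difference.

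With the whole lists, no difference in the sharing of ETS2 with knockout ZMYND11 was detectable between a segment and the rest of the chromosome. This reading did not hold with the knockout list taken to the length of the ETS2 list, where 53.8% of ETS2 regions were shared in the p arm, 21.4% in the q-arm body and 52.9% in q13.4. An overlap of 1 bp or more counted as shared. In the p-arm segment 30 of 52 ETS2 regions overlapped a knockout region (57.7%, Wilson interval 44.2 to 70.1%), in the q-arm body 24 of 42 (57.1%, interval 42.2 to 70.9%) and in q13.4 12 of 17 (70.6%, interval 46.9 to 86.7%). Over the whole ETS2 list the share was 57.1%, and on the other chromosomes it was 56.8%. The q13.4 share exceeded that of the rest of chromosome 19 by 13.7 percentage points with an interval of -11.8 to 32.7, so no difference was detectable with 17 regions. Midpoints within 1 kb were found for 75%, 71.4% and 76.5% of ETS2 regions in the p-arm, q-arm body and q13.4 segments.

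Seen from knockout ZMYND11, 3.71% of all its regions overlapped an ETS2 region. On chromosome 19 the share was 66 of 1359 (4.86%, interval 3.84 to 6.13%), 1.25 percentage points above the other chromosomes (Newcombe interval 0.183 to 2.56). The interval included 0 when a reciprocal overlap of 50% was required (0.745 points, -0.137 to 1.87) and when the knockout list was taken to the length of the ETS2 list (0.308 points). By segment the share was 4.63% in the p arm, 4.40% in the q-arm body and 7.74% in q13.4, where 12 of 155 overlapped (interval 4.48 to 13.0%). The excess of q13.4 over the rest of the chromosome was 3.26 points with an interval of -0.259 to 8.66. In p12, 0 of 10 overlapped.

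**Figure D3:**
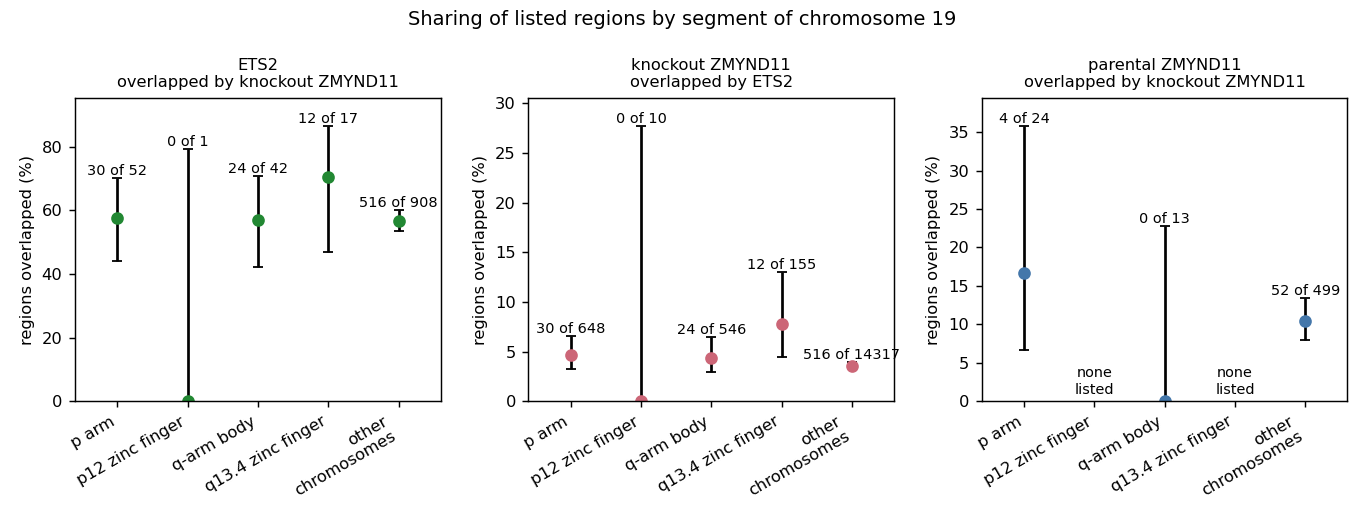
Percentage of regions that overlap a region of another list by at least 1 bp, by segment of chromosome 19 and for the other chromosomes, with 95% Wilson intervals and the counts. The intervals of the segments overlap each other in every panel. The parental list has no region in either zinc-finger segment, and its 4 overlaps with knockout ZMYND11 are all in the p-arm segment.

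The ETS2 regions of q13.4 show what sharing looked like at single places. The earliest in the list, chr19:54618563-54619057 at place 19, overlapped the knockout ZMYND11 region chr19:54618777-54619278 at place 118. Near the chromosome end, chr19:59073681-59074180 (place 138) overlapped a knockout region at place 366, chr19:58907142-58907643 (place 174) one at place 83, chr19:59066092-59066591 (place 218) one at place 97 and chr19:58838089-58838589 (place 228) one at place 617. In these 5 cases the midpoints were 165 to 382 bp apart. Of the 5 ETS2 regions of q13.4 without overlap, 4 still had a knockout midpoint within 3 kb: chr19:54712488-54712978 at 577.5 bp, chr19:54661052-54661543 at 1.69 kb, chr19:56154687-56155164 at 1.89 kb and chr19:59063639-59064115 at 2.72 kb. The other, chr19:58489772-58490273 (place 374), was 24.1 kb away.

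In the p-arm segment and the q-arm body several of the earliest regions of the lists lay side by side without overlapping. The knockout ZMYND11 region listed earliest on the chromosome, chr19:10224340-10224841 at place 10, had no ETS2 overlap, but chr19:10225209-10225704, at place 35 for ETS2, was 866 bp away by midpoint. On the q arm the ETS2 region chr19:51297953-51298454 (place 15) and the knockout region chr19:51298584-51299085 (place 19) were 631 bp apart. The ETS2 region chr19:49996607-49997105 (place 159) and the knockout region chr19:49996002-49996502 (place 72) were 604 bp apart. Other early ETS2 regions fell directly on a knockout region. For chr19:2427733-2428223 (place 46) the midpoint of the knockout region at place 84 was 1 bp away, and for chr19:42376761-42377258 (place 41) that of the region at place 42 was 67 bp away. Over all unshared ETS2 regions of chromosome 19 the nearest knockout midpoint was at a median of 1.58 kb, against 1.49 kb on the other chromosomes.

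**Figure D4:**
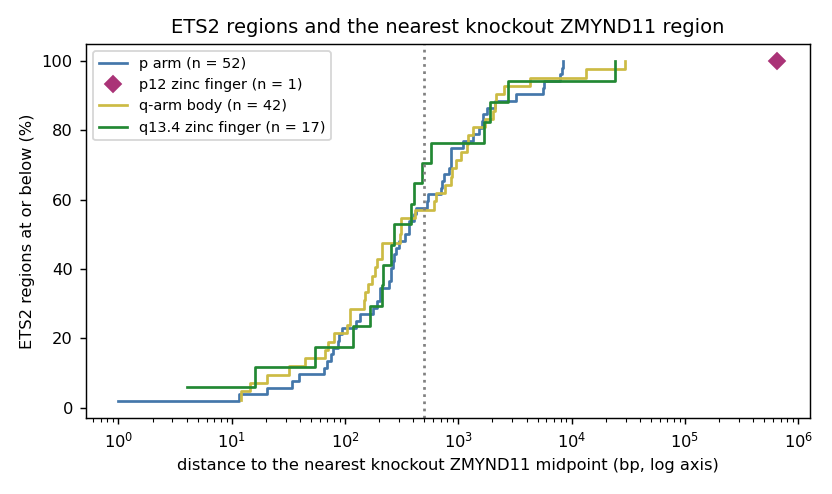
Cumulative percentage of ETS2 regions by the distance from their midpoint to the nearest knockout ZMYND11 midpoint, on a log axis in bp, for the segments of chromosome 19. The dotted line marks 500 bp, about the width of 1 region. The curves of the p arm, the q-arm body and q13.4 run close together, and the single p12 region stands alone at 645 kb.

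The knockout ZMYND11 regions that ETS2 regions overlapped stood earlier in their list in the p-arm segment than in the q-arm body. In the p-arm segment 29 of 30 shared ETS2 regions met a knockout region from the first 10% of its list (96.7%, interval 83.3 to 99.4%). In q13.4 10 of 12 did (83.3%, interval 55.2 to 95.3%), in the q-arm body 15 of 24 (62.5%, interval 42.7 to 78.8%), and on the other chromosomes 79.5%. The p-arm and q-arm body shares differed by 34.2 percentage points (Newcombe interval 13.1 to 54.1). That difference was 28.2 to 57.5 points under the 8 alternatives run for it, with no interval that included 0. Merging regions and moving the zinc-finger bounds left its counts unchanged. The 57.5 points came from the first 50% of each list, where the first 10% was that of the shortened knockout list. Equal list length was not run for it. No alternative left out the megabases from 37 to 38 Mb and 44 to 45 Mb, described below. The ETS2 regions themselves stood at similar places in their own list (median places 362.5 and 385). The proportion of all knockout regions in the first 10% was also similar, at 13.7% (interval 11.3 to 16.6%) in the p arm, 12.6% (10.1 to 15.7%) in the q-arm body and 12.9% (8.51 to 19.1%) in q13.4. Against the other chromosomes the q-arm body was 17.0 points lower (interval -37.0 to -0.204), and this interval included 0 under 3 alternatives. The comparison was added after the places had been seen.

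The sharing by segment depended on how much of the knockout list was used. The first 1020 knockout regions lie within the first 10% (1567 regions), so their partners are among the early partners counted above. This is therefore not a separate finding. Against the first 1020 knockout regions, 28 of 52 ETS2 regions of the p-arm segment (53.8%) and 9 of 17 of q13.4 (52.9%) were shared, but only 9 of 42 of the q-arm body (21.4%, interval 11.7 to 35.9%). The difference from the rest of chromosome 19 was then -31.4 points for the q-arm body (interval -46.3 to -12.9) and 23.8 points for the p-arm segment (interval 5.56 to 40.2). With the whole list these differences were -2.86 points (interval -21.2 to 15.2) and -2.31 points (interval -20.0 to 15.4). The first 1020 knockout regions were themselves a smaller share of the knockout regions in the q-arm body, with 37 of 546. They made up 68 of 648 in the p-arm segment and 16 of 155 in q13.4. The part of this in the sharing at that cutoff was not tested.

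The 9 q-arm ETS2 regions with a later-listed ZMYND11 partner were not spread evenly. Between 37 and 38 Mb there were 4, chr19:37178136-37178630, chr19:37708812-37709313, chr19:37860999-37861494 and chr19:37904003-37904493, with partners at places 1887, 2699, 1793 and 4716. Between 44 and 45 Mb there were 3, chr19:44488052-44488531, chr19:44716489-44716980 and chr19:44980707-44981202, with partners at places 5401, 2284 and 2039. The megabase from 37 to 38 Mb held 8 ETS2 regions, the most of any megabase of the q arm, but 24 knockout regions, which is 3 per ETS2 region, and 7 of the 8 were shared. In the remainder of the q-arm body 11 of 13 shared ETS2 regions met a knockout region of the first 10%. Both megabases were picked after these positions were known.

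Parental ZMYND11 met the other lists in the p-arm segment only, where 4 of 24 regions overlapped a knockout ZMYND11 region (16.7%, interval 6.68 to 35.9%). In the q-arm body 0 of 13 did, which allows a share of up to 23.1% by the limit of 3 counts (Wilson upper limit 22.8%). Over the whole parental list 10.4% overlapped a knockout region, and chromosome 19 as a whole, with 4 of 37, differed from the other chromosomes by 0.390 points (Newcombe interval -6.79 to 14.5). The 4 were chr19:895882-896369 (parental place 162, knockout place 2430), chr19:5680437-5680924 (438 and 626), chr19:10793963-10794430 (525 and 14368) and chr19:781918-782414 (526 and 15663). An ETS2 region was overlapped by 3 parental regions of chromosome 19 (8.11%, interval 2.80 to 21.3%), against 3.36% of the parental list.

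Parental and knockout ZMYND11 regions were nonetheless near each other in the p-arm segment and apart in the q-arm body. Of the 24 parental regions of the p-arm segment, 20 had a knockout midpoint within 10 kb (83.3%, interval 64.1 to 93.3%), with a median distance of 2.51 kb. In the q-arm body 1 of 13 did (7.69%, interval 1.37 to 33.3%), with a median of 34.8 kb. The difference was 75.6 percentage points (Newcombe interval 43.6 to 87.5). On the other chromosomes the share was 35.9% (interval 31.8 to 40.2%), and the difference of either segment from it was not tested. Within the p-arm segment the share was 12 of 14 in the first 5 Mb and 8 of 10 in the remaining 15 Mb, where the density of knockout regions, 26.1 per Mb, was near that of the q-arm body from 33 to 52 Mb, 28.2 per Mb. The part of local density in this difference was not tested, and the 10 kb distance was chosen after the distances were seen.

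The 13 parental regions of the q-arm body mostly lay far from the regions of the other lists. The earliest, chr19:37784235-37784736 at place 35 of 536, was 24.2 kb from the nearest knockout midpoint. The region chr19:45317752-45318230 (place 47) was the nearest, at 3.32 kb, and chr19:28642281-28642780 (place 371) the farthest, at 358 kb. None of the 13 was within 10 kb of an ETS2 midpoint, the nearest being 34.6 kb away. By contrast the first parental regions of the p-arm segment, chr19:5691917-5692405 (place 15), chr19:3977617-3978118 (place 19), chr19:13947299-13947799 (place 25) and chr19:1251212-1251711 (place 34), had knockout midpoints at 3.11, 2.39, 2.84 and 1.30 kb.

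A stretch of 16.6 kb near 5.69 Mb held 4 of the 37 parental regions and all 3 that overlapped ETS2. It opened with the only place on chromosome 19 where all 3 lists met: parental ZMYND11 at chr19:5680437-5680924, knockout ZMYND11 at chr19:5680359-5680858 and ETS2 at chr19:5680273-5680771, at places 438, 626 and 365. Next came a parental region alone, chr19:5687743-5688236 (place 74). The parental region chr19:5691917-5692405 (place 15) coincided with ETS2 at chr19:5691793-5692294 (place 643), and chr19:5696550-5697032 (place 105) with ETS2 at chr19:5696650-5697149 (place 42). At both places the nearest knockout ZMYND11 region did not overlap. It was chr19:5695023-5695524 at place 47, 3.11 kb and 1.52 kb from the 2 parental midpoints, between the 2 pairs.

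The spacing of knockout ZMYND11 regions differed by segment together with the density given above. A lower density widens the spacing, so these values are not a separate trait. Spacing beyond what density gives was not tested. The median distance to the nearest knockout midpoint was 4.05 kb in the p arm (quartiles 2.38 and 8.51 kb), 4.34 kb in the q-arm body (2.35 and 11.1 kb) and 6.84 kb in q13.4 (3.29 and 19.1 kb). The share with a neighbour within 10 kb was 78.2%, 72.9% and 61.3% in the same order, and 20% in p12. Merged at 10 kb, the p arm had 280 clusters, of which 32 held 5 or more regions, the q-arm body 259 with 22, q13.4 89 with 4, and p12 9 with 0. Counted in clusters the density was 12.4 per Mb in q13.4 and 14 in the p arm, a ratio of 0.883 whose interval included 1 (0.688 to 1.12), whereas in regions it was 0.664 (0.554 to 0.793). The largest cluster of the chromosome was in the q-arm body, chr19:36192777-36263674, with 12 knockout regions in 70.9 kb and 2 ETS2 regions within it. The largest of the p arm, chr19:1051373-1105350, had 9 knockout regions, 2 ETS2 regions and 1 parental region, and that of q13.4, chr19:55876131-55918747, had 7 knockout regions and no other.

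Neighbouring knockout midpoints were almost never closer than 1 kb. On chromosome 19 there was 1 such pair, at 994 bp, against 133 pairs at 1 to 2 kb and 144 at 2 to 3 kb. In the whole knockout list 4 of 15652 pairs were, and in the ETS2 and parental lists 0. Median widths of knockout ZMYND11 regions were 486 to 496 bp by segment, and all regions of the chromosome between 434 and 501 bp.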

How the data were processed

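Each deposited file is a list of regions from 1 library, with chromosome, start and end and no score, read count or p-value. Per the submitters' processing notes, the authors used Bowtie2 2.0.6 and the hg19 build. How peaks were called, at what cutoff, against which control and at what depth is not stated in the labels. Whether starts count from 0 or 1 is not stated, and coordinates are printed as deposited by the authors. Regions were assigned to segments by midpoint, and overlap needed at least 1 bp. Shares have 95% Wilson intervals, and for a share of 0 the text also gives the limit of 3 counts of the total. Differences of shares have Newcombe intervals, and densities and their ratios exact intervals. No p-value was computed, because each list is 1 library. A difference was read as detectable where its interval left out 0 (for ratios, 1). The functions were tested on simulated data. The members and comparisons were chosen with earlier results of these data known. Named regions are those in all 3 lists, parental regions overlapping another list, the first 5 per list and segment, and the first 5 ETS2 regions per segment with and without knockout ZMYND11. From these sets the text names a selection, and others were chosen after their positions were seen. Planned analyses of sequence and gene content were not run, since the reference tables at hand were on another build. Since the lists hold no score, alternatives planned on scores used file order. Software was matplotlib 3.10.9, scipy 1.17.1, pandas 2.3.3 and numpy 2.4.6 under Python 3.11.15.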

Additional observations from a re-analysis of the deposited data

How the results depend on the processing

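The 15 planned differences of shares were recomputed under up to 8 alternatives, 104 values in all. Of these values 98 kept the reading of the main value. In 2 further cases no value could be given, because p12 held no region in the shortened list. Of the 15 main differences 14 were not detectable and 1 was, so most kept readings are differences that stayed undetected. Moving the zinc-finger bounds by 0.5 Mb left the counts of shared ETS2 regions unchanged, and p12 held only 1 ETS2 region. With the longer list taken to the length of the shorter, ETS2 sharing in the p-arm segment turned from -2.31 to 23.8 points, that of the q-arm body went to -31.4 points, and knockout ZMYND11 sharing with ETS2 in the q-arm body to -19.7 points (from -0.770). The p-arm excess of parental ZMYND11 was no longer detectable at equal list length (11.5 points), with regions within 10 kb merged (14.1) or without the densest megabase (13.395).

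For the 11 results added after the data were seen, 60 of 70 values kept their reading. Some of these values repeated the main counts, as for the early partners when the zinc-finger bounds were moved. The chromosome 19 excess of knockout ZMYND11 regions with ETS2 was lost at equal length (0.308 points) and with reciprocal overlap of 50% (0.745). The absence of parental regions from q13.4 was not detectable in the first 50% of each list (-12.5 points). The lower share of early partners in the q-arm body than on other chromosomes was lost with merged regions (-16.6 points), reciprocal overlap (-16.2) and midpoints within 1000 bp (-12.0). With merged regions the density ratio of q13.4 to the p arm was 0.883. The parental density ratio of the q-arm body to the p arm, 0.442, was 0.590 with merged regions, 0.560 without the densest megabase and 0.796 without 0 to 5 Mb, each with an interval that included 1. The causes were not tested. No paired analysis was possible because each group has 1 library, and none could be left out. The depth of the libraries is unknown, so regions missing from a list may be below its threshold.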
